A study of Homo sapiens with 8 samples.

Results

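The clustered histone genes encode the linker histone H1 and the core histones H2A, H2B, H3 and H4 in a few dense gene clusters. They were taken as every gene whose symbol in the deposited comparison tables has the form used for these clusters (older names HIST1H to HIST4H, current names such as H2AC6 or H4C15). This gave 37 of 18937 genes, namely 1 H1 gene (H1-2), 11 H2A, 14 H2B, 4 H3 and 7 H4 genes, of which 3 are annotated as pseudogenes (H2AC10P, H2BC19P and H2BC20P). In GENCODE release 29, on genome build GRCh38, 28 of the 37 lie on chromosome 6 and 9 on chromosome 1.

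The RNA came from HT29 cells, a long-established line from a human colorectal adenocarcinoma, under 4 conditions with 2 libraries each. The cells received 0.1% DMSO as the vehicle control, ICG-001 at 10 µM, CWP232228 at 1.5 µM or YB-0158 at 0.3 µM, small molecules that the series title classes as reverse-turn peptidomimetics. Treatment lasted 48 h, except that replicate 2 of ICG-001 and replicate 2 of CWP232228 are labelled 49 h. The labels do not say whether replicates were separate cultures, and p-values therefore cover only library-to-library spread, possibly technical. The doses differ between compounds, so each compound was compared with DMSO and the 3 results are given side by side. All 3 comparisons use the same 2 DMSO libraries.

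Most clustered histone mRNAs are made in S phase, when new chromatin is packed. They are the one class of animal mRNA that usually ends in a conserved stem-loop and carries no poly(A) tail: the stem-loop binding protein SLBP and the U7 snRNP direct a cut just after the stem-loop. Some of these genes can also yield longer, polyadenylated mRNAs, when the stem-loop is passed and a downstream poly(A) signal is used, a form known from differentiated and non-dividing cells. A library kit that selects poly(A) RNA, such as the one named in the labels, is therefore read as a view of the polyadenylated forms plus whatever tail-less RNA was carried along.

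The stem-loop could be located in the transcripts to which the reads were assigned, and these sequences are shown because the position of the stem-loop within the transcript is what separates the 2 kinds of mRNA. The motif searched was the 16-base stem-loop consensus GGC, any base, CTT, any base, T, any base, AG, any base, GCC, on the transcript strand only. It was found in 0.0334% of all 206694 reference transcripts. Below, each line gives 26 bases with the motif in capitals, from GENCODE release 29 (GRCh38).
H2AC19, chr1:149851569-149851594, plus strand: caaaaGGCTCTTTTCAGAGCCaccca
H2BC5, chr6:26158582-26158607, plus strand: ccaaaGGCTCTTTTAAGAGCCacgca
H2AC8, chr6:26217412-26217437, plus strand: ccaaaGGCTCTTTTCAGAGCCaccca
H2AC6, chr6:26124664-26124689, plus strand: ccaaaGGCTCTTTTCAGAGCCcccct
H2BC21, chr1:149886183-149886208, minus strand: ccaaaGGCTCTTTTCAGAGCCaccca
H3C6, chr6:26225591-26225616, plus strand: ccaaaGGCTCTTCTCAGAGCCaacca
H4C15, chr1:149860764-149860789, minus strand: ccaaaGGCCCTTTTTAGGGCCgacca
In H2AC19, H2AC8 and the 496-base transcript of H2BC5 only 35, 51 and 39 bases follow the motif. In H2AC6, H2BC21, H3C6 and H4C15 the main transcript runs on for 1114, 1729, 1862 and 690 bases beyond it.

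The ends of these transcripts were searched for the poly(A) signal hexamer, AATAAA or ATTAAA, in the last 40 bases. It was present in 30.2% of all reference transcripts. The last 30 bases are shown for 6 transcripts, with the hexamer in capitals, because they show where a poly(A) tail could be added after the stem-loop has been passed.
H2BC21 end, chr1:149884459-149884488, minus strand: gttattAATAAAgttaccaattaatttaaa
H2AC6 end, chr6:26139073-26139102, plus strand: agcctggcatgaggtAATAAAaggtaatgc
H3C6 end, chr6:26227444-26227473, plus strand: agatgtaaAATAAAagattactgaacagaa
H4C15 end, chr1:149860079-149860108, minus strand: ttcAATAAAaagcctcctaatttaatcaag
H2BC5 end, 789-base transcript, chr6:26171320-26171349, plus strand: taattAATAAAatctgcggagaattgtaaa
H2AC19 end, chr1:149851595-149851624, plus strand: cgttttcaAATAAAagagttgttaatgctg
Of the 61 transcripts listed for the 37 genes, 49 have a reference sequence of the same version and length. Of the 25 among them that are over 1000 bases long, 23 hold the stem-loop motif, followed by 212 to 5804 further bases, and 19 of those 23 also have the hexamer near the end. H2AC19 holds both elements within its last 51 bases (35 bases after a motif of 16), so that a stem-loop end and a poly(A) signal lie side by side. A match of letters describes the sequence and does not show that an end is used.

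**Figure D1:**
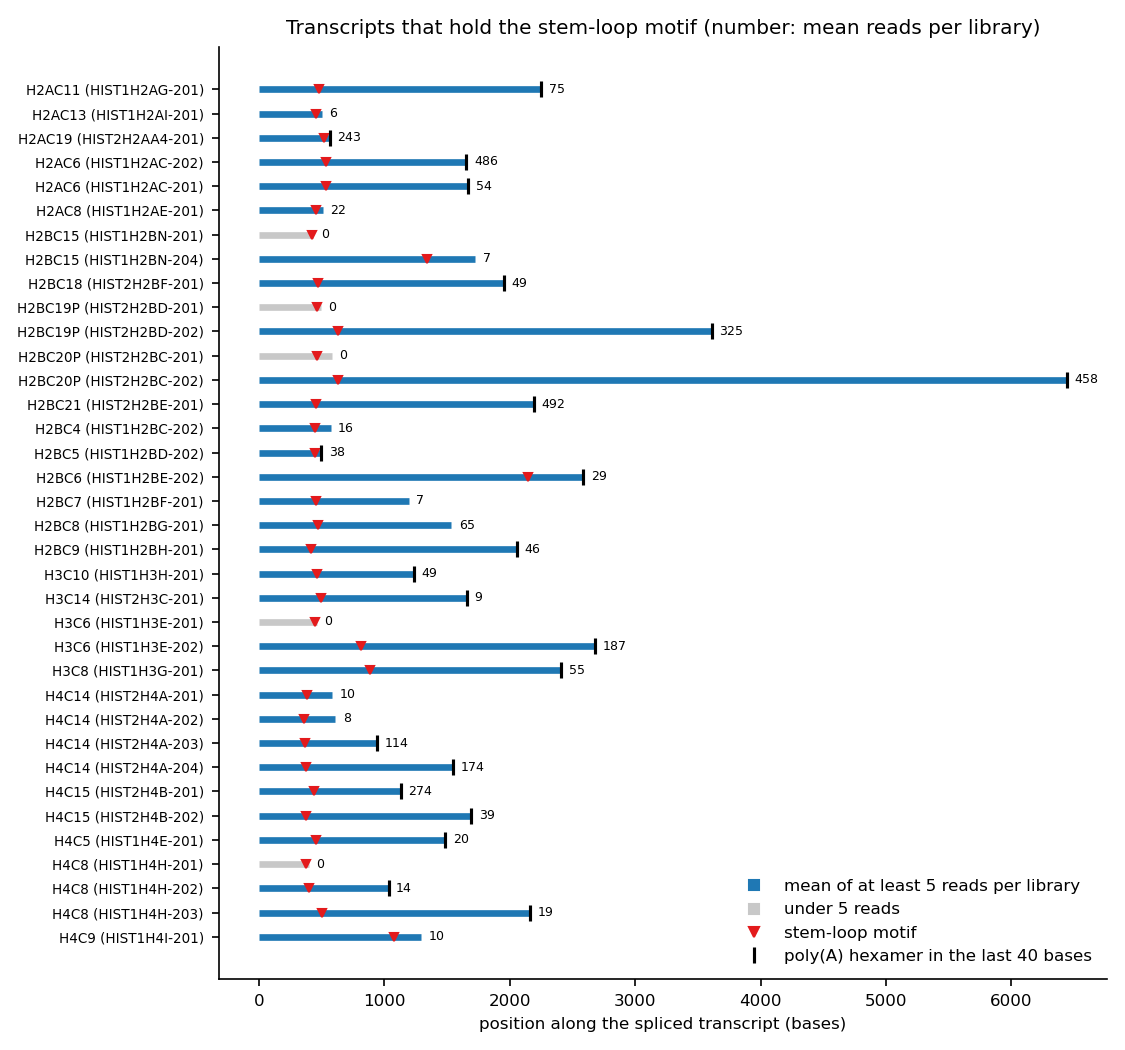
Each bar is 1 annotated transcript drawn to scale in bases, with the stem-loop motif as a red triangle, a poly(A) hexamer in the last 40 bases as a black tick, and the mean number of assigned reads per library printed at its end. The short transcripts of H2BC15, H2BC19P, H2BC20P, H3C6 and H4C8, which stop close to the stem-loop, took 0 reads. H2BC20P, H2BC19P and H3C6 reads lay on long transcripts, and H2BC21 and H4C15 have only long transcripts listed.

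Where a gene offered long and short transcripts, the division of reads differed between genes. In 8 genes with annotated transcripts on both sides of 1000 bases, the share of reads on the longer ones was 100% in all 8 libraries for 5: H2BC6, H2BC19P, H2BC20P, H3C6 and H4C8. It ranged from 71.4% to 100% in H2BC15 and from 75.6% to 100% in H2BC18. In H4C14 it ranged from 0% to 68.1%, but this gene and H4C15 are near-identical copies and the split of reads between them was unstable, as described below. H2BC5 has a form of 496 bases with the stem-loop and a spliced form of 789 bases that holds no match to the motif. The stem-loop form took 21.6% and 19.2% of the H2BC5 reads with DMSO. It took 11.2% and 15.2% with ICG-001, 16.99% and 0% with CWP232228, and 10.99% and 7.96% with YB-0158. The DMSO libraries were the 2 highest, but each value rests on at most 68.2 assigned reads and on an estimate that divides shared sequence, so no test was made. H2BC4 has a stem-loop form of 571 bases, which took 70.3% and 57.5% of its reads with DMSO, 45.8% and 44.8% with ICG-001, 0% and 50.2% with CWP232228, and 58.7% and 12.6% with YB-0158. These shares overlapped between DMSO and YB-0158.

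The levels were low. All 37 genes together took between 3386 and 6154 reads per library, 0.0101% to 0.0147% of the 29071547 to 58489118 reads assigned. Of 90 genes annotated with an older clustered histone symbol, 53 were not members, and 49 of the 52 of those with a value had at most 10 reads in every library. They include H1-4 (mean 3.38 reads per library), H1-5 (2.75) and H4C3 (1.88). The 3 with more, H2AC25 (mean 451 reads), H2BC26 (39.2) and H4C16 (29.6), carry other symbols in the deposited tables and are not members. Per length, H2BC12 was the most abundant member (mean 53.6 TPM over the 8 libraries), followed by H2AC19 (17.1 TPM), H2BC5 (14.2 TPM) and H2AC6 (11.6 TPM). H1-2 stood at 8.86 TPM, H4C15 at 7.60, H4C14 at 7.30 and H2BC21 at 5.69 TPM. The H3 genes were lower, with H3C6 at 1.88 TPM and H3C10 at 1.21 TPM.

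RNAs that have no poly(A) tail, a list of 20 with RMRP, RPPH1, RN7SK and small Cajal body RNAs, summed to 6.26 and 3.14 counts per 1e+06 reads (CPM) with DMSO, 2.35 and 2.11 with ICG-001, 5.34 and 5.17 with CWP232228, and 1.50 and 2.04 with YB-0158. Only 5 of the 20 had enough reads to test. RN7SL1, chosen after its values were seen, fell with ICG-001 (log2 fold change -1.49, edgeR adjusted p = 0.0086) and with YB-0158 (-1.47, adjusted p = 0.01) and was at -0.02 with CWP232228. Neither fall passed after a correction for GC content and length (adjusted p = 0.067 and 0.0504). The part of carried-along tail-less RNA in the histone results was not tested.

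Other features of the libraries touch every result below. The 2 DMSO libraries differed more from each other than the pairs of treated libraries did: the SD of the log2 difference was 0.30 against 0.11 to 0.13, over 8568 genes. This difference followed GC content (Spearman rho -0.42) and transcript length (0.41) across 16449 genes, which are not independent replicates. The fold changes of all genes also followed both, with rho of -0.43, -0.58 and -0.38 for GC content and 0.35, 0.39 and 0.34 for length with ICG-001, CWP232228 and YB-0158. Values corrected for both are given beside the main ones, or in the closing section, for the genes named below whose call or direction changed. The 10 colon epithelium markers summed to 14858 and 17226 CPM with DMSO and 11229 to 13550 CPM in the treated libraries. They include EPCAM, called higher with all 3 compounds, and VIL1, called lower with all 3. With ICG-001, CWP232228 and YB-0158, 4, 3 and 4 of the 10 were called higher and 5, 5 and 5 lower. Among all genes tested, 24.8%, 21.6% and 21.7% were higher and 24.0%, 21.2% and 22.1% lower. After the correction the counts of these 10 became 4, 2 and 5 higher and 4, 5 and 3 lower. Among all genes, 19.4%, 9.43% and 18.1% were then higher and 27.8%, 18.9% and 26.4% lower. The 8 fibroblast markers summed to 4.61 to 6.48 CPM, with COL1A2 and PDGFRA at 0 in every library. Of the 3 fibroblast markers tested, LUM was called higher with ICG-001, CWP232228 and YB-0158 (log2 fold changes 2.07, 1.94 and 2.26), COL1A1 lower (-1.80, -0.89 and -1.01), and VIM was not called. The 8 leukocyte and endothelium markers summed to 2487 to 2872 CPM, nearly all of it LYZ, with 1 of the 8 at 0 in every library. CD68 and PECAM1 were called lower with ICG-001 (-1.19 and -0.83) and YB-0158 (-0.84 and -0.90). After the GC and length correction CD68 was not called with YB-0158 (-0.59, adjusted p = 0.052). LYZ was called with none of the compounds (-0.12, -0.14 and -0.12). After the correction it was called lower with all 3 (-0.30, -0.38 and -0.24). The part of these markers in the histone results was not tested.

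Summed by type, in CPM scaled by the trimmed mean of M values (TMM), the H1, H2A, H2B and H3 sums were lower with each compound than with DMSO, and the H4 sum was not. H2A was 37.8 and 38.2 CPM with DMSO, 21.4 and 23.2 with ICG-001, 21.7 and 23.3 with CWP232228, and 19.7 and 18.9 with YB-0158. H2B was 75.5 and 74.2 CPM with DMSO, 61.4 and 61.5 with ICG-001, 61.8 and 66.2 with CWP232228, and 57.1 and 56.6 with YB-0158. H3 was 9.94 and 10.9 CPM with DMSO, 6.21 and 6.94 with ICG-001, 7.23 and 8.67 with CWP232228, and 7.33 and 6.81 with YB-0158. In these 3 types every treated library was below both DMSO libraries. H4 was 17.5 and 17.4 CPM with DMSO, 20.3 and 20.6 with ICG-001, 14.9 and 15.2 with CWP232228, and 18.8 and 17.1 with YB-0158, so that both ICG-001 libraries lay above DMSO and both CWP232228 libraries below. The mean H2B sum was 82.2%, 85.6% and 76.0% of DMSO in CPM, but 60.6%, 66.8% and 63.6% in TPM, with ICG-001, CWP232228 and YB-0158. CPM gives long transcripts more weight than TPM does. These sums carry no test.

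**Figure D2:**
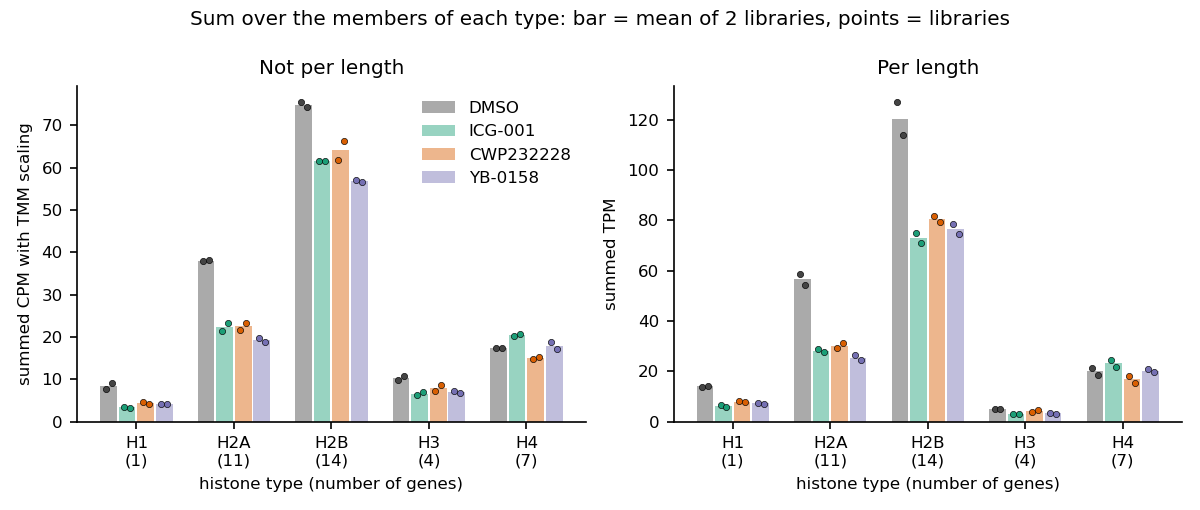
Sum of each histone type per library, as TMM-scaled CPM on the left and TPM on the right; bars are the means of 2 libraries and points are libraries. H2A in CPM stands at 37.8 and 38.2 with DMSO and between 18.9 and 23.3 in the 6 treated libraries, whereas the H4 libraries of DMSO (17.5 and 17.4) lie within the treated range.

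Gene by gene, 30 of the 37 had enough reads for edgeR's quasi-likelihood test, with Benjamini-Hochberg adjustment over all 16449 genes tested and a call at an adjusted p under 0.05. The other 7 averaged at most 6.44 reads per library and are H2AC7, H2AC10P, H2AC13, H2AC14, H2AC20, H2BC17 and H4C11. With ICG-001, 12 of the 30 were called lower and 1 higher, where 24.0% of all genes tested were lower and 24.8% higher (48.8% in either direction). With CWP232228, 9 were lower and 2 higher, beside 21.2% and 21.6% of all genes (42.8% in either direction). With YB-0158, 12 were lower and 0 higher, beside 22.1% and 21.7% (43.8% in either direction). The median log2 fold change of the 30 was -0.36, -0.23 and -0.61, where that of all genes was 0.03, 0.04 and 0.02. At an adjusted p under 0.05 the authors' deposited table called 9 members lower with ICG-001, 5 with CWP232228 and 8 with YB-0158, and 0 higher, where 18.1%, 15.1% and 16.6% of its genes were lower and 17.8%, 15.3% and 16.8% higher.

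These counts depended on the setting mostly for CWP232228. Corrected for GC content and length, 12, 7 and 15 members were called lower and 0 higher with ICG-001, CWP232228 and YB-0158, beside 27.8%, 18.9% and 26.4% of all genes lower. With CWP232228 the correction also moved the calls over all genes, from 21.2% lower and 21.6% higher to 18.9% and 9.43%. The counts that follow come from fits that keep 1 library in a group. The shares of all genes called in those fits were not counted, so these counts have no background. Without DMSO replicate 1, with 32 members tested, the calls were 11 lower and 2 higher with ICG-001, 7 and 3 with CWP232228, and 12 and 1 with YB-0158. Without DMSO replicate 2, with 36 tested, they were 12 and 1, 8 and 1, and 11 and 1. Without CWP232228 replicate 2, the library labelled 49 h, 6 members were lower and 0 higher with that compound.

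H1-2, H2AC19, H2AC6, H2BC12, H2BC5, H3C14 and H4C5 were called lower in each of the 3 comparisons, which share their DMSO libraries. The share of all genes tested that were lower in each of the 3 was not counted, so this overlap has no background. H2BC12 and H3C14 lost the CWP232228 call after the GC and length correction. On chromosome 6, 10, 7 and 10 of 22 tested genes were lower with ICG-001, CWP232228 and YB-0158, where 24.0%, 21.2% and 22.1% of all genes were. On chromosome 1, 2 of 8 were lower with each compound, H2AC19 and H3C14, which is near the share of all genes. The difference between the chromosomes was not tested.

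**Figure D3:**
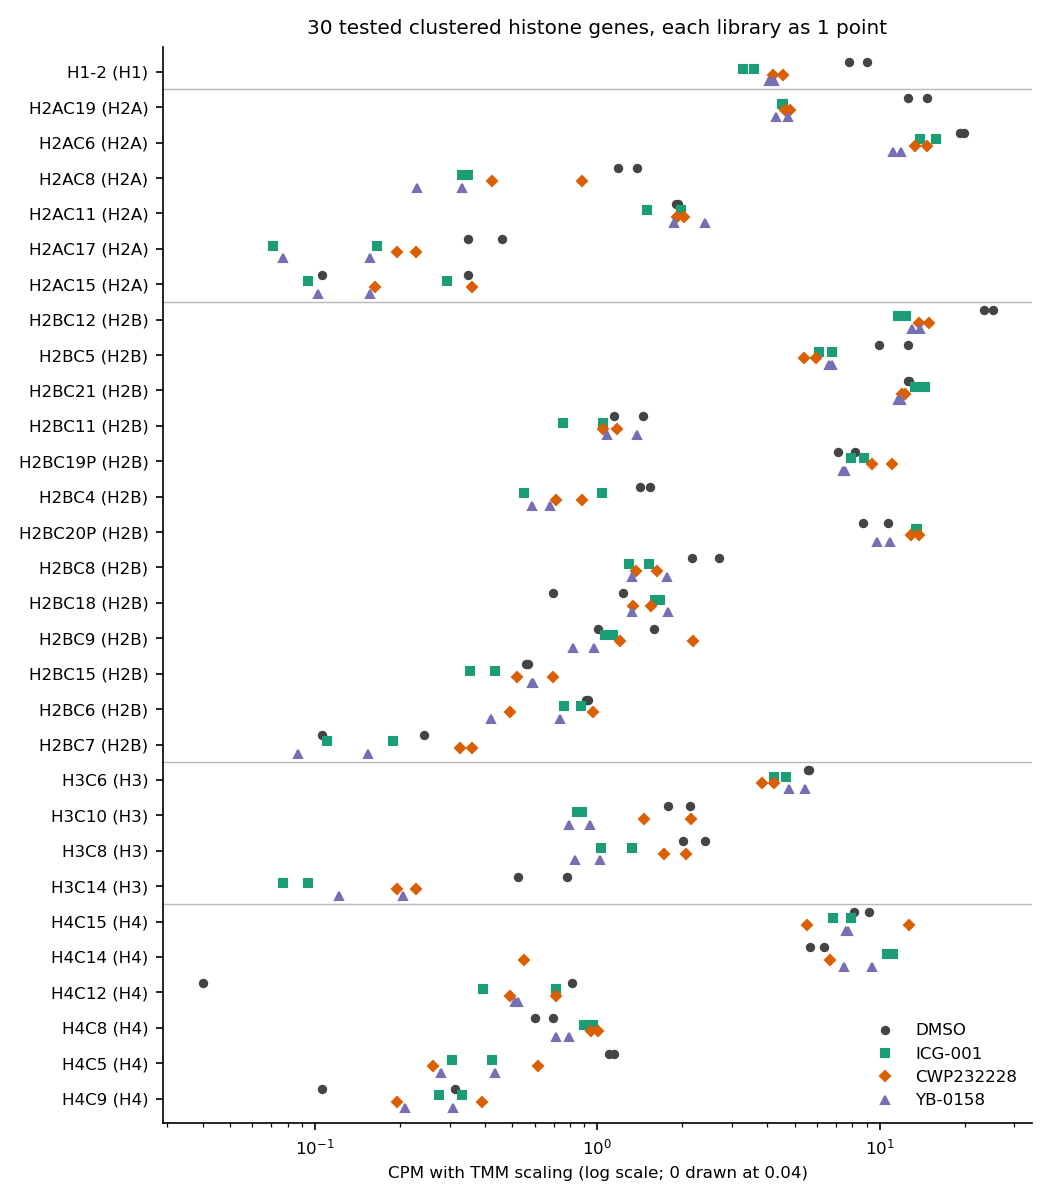
Level of each of the 30 tested genes in every library as TMM-scaled CPM on a log axis, 1 point per library, ordered by type and, within a type, by mean TPM. H2AC19 libraries stand at 12.6 and 14.7 with DMSO and between 4.30 and 4.82 in the 6 treated libraries, while the H2BC21 libraries all lie between 11.6 and 14.5.

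H1-2 encodes a linker histone, which binds the DNA between nucleosomes, and is the only H1 gene among the members. Its level was 7.75 and 9.02 CPM with DMSO, 3.58 and 3.28 with ICG-001, 4.56 and 4.17 with CWP232228, and 4.21 and 4.07 with YB-0158. Every treated library was below both DMSO libraries. It fell with ICG-001 (log2 fold change -1.29, SE 0.14, adjusted p = 0.00021), CWP232228 (-0.94, SE 0.14, adjusted p = 0.002) and YB-0158 (-1.02, SE 0.14, adjusted p = 0.0007). The falls remained called after the GC and length correction, at -0.88, -0.55 and -0.68.

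Among the H2A genes, whose products pair with H2B, H2AC19 had the highest TPM. It stood at 12.6 and 14.7 CPM with DMSO, 4.49 and 4.53 with ICG-001, 4.82 and 4.63 with CWP232228, and 4.73 and 4.30 with YB-0158. Treated and DMSO libraries did not overlap. Its log2 fold changes were -1.59 (SE 0.13, adjusted p = 5.5e-05), -1.53 (SE 0.13, adjusted p = 0.00039) and -1.59 (SE 0.13, adjusted p = 6.3e-05). H2AC19 has a near-identical neighbour, HIST2H2AA3, which is listed with 0 reads in every library, so the value may hold reads of both.

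H2AC6 is the H2A gene with the long transcript whose end is shown above. Its level was 19.9 and 19.3 CPM with DMSO, 13.9 and 15.9 with ICG-001, 13.3 and 14.7 with CWP232228, and 11.9 and 11.2 with YB-0158. It was lower in every treated library. The log2 fold changes were -0.40 (SE 0.11, adjusted p = 0.014), -0.48 (SE 0.11, adjusted p = 0.009) and -0.76 (SE 0.11, adjusted p = 0.00085). All of its listed transcripts are over 1000 bases long, so its reads could be assigned to no shorter form.

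H2AC8, measured on 1 short stem-loop transcript, was at 1.18 and 1.38 CPM with DMSO, 0.349 and 0.330 with ICG-001, 0.423 and 0.880 with CWP232228, and 0.331 and 0.230 with YB-0158. It fell with ICG-001 (-1.90, SE 0.40, adjusted p = 0.0047) and YB-0158 (-2.15, SE 0.40, adjusted p = 0.0034). With CWP232228, whose 2 libraries stood apart from each other, the value was -0.97 (95% interval -1.85 to -0.09, adjusted p = 0.072). H2AC17 followed the same pattern of calls at a mean of 7.5 reads per library, with -1.70 for ICG-001 (adjusted p = 0.032), -0.92 for CWP232228 (adjusted p = 0.2) and -1.70 for YB-0158 (adjusted p = 0.035). Its calls did not pass after the GC and length correction (adjusted p = 0.13 and 0.11 with ICG-001 and YB-0158), and its exons overlap those of H3C12 on the same strand. H2AC11, whose only listed transcript has 2250 bases, was called with none of the compounds, at -0.14, 0.04 and 0.15.

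The H2B genes did not move as one. H2BC12, the most abundant member, was at 25.1 and 23.4 CPM with DMSO, 12.4 and 11.6 with ICG-001, 14.97 and 13.8 with CWP232228, and 13.9 and 13.0 with YB-0158. All 6 treated libraries were below both DMSO libraries. Its log2 fold changes were -1.01 (SE 0.10, adjusted p = 0.00013), -0.75 (SE 0.10, adjusted p = 0.0014) and -0.85 (SE 0.10, adjusted p = 0.00033). After the GC and length correction the value with CWP232228 was -0.29 and no longer passed (adjusted p = 0.095), while those with ICG-001 (-0.48) and YB-0158 (-0.40) did.

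H2BC5 was at 9.94 and 12.6 CPM with DMSO, 6.10 and 6.80 with ICG-001, 5.40 and 5.94 with CWP232228, and 6.77 and 6.60 with YB-0158. The changes on the log2 scale were -0.81 (SE 0.14, adjusted p = 0.0021), -0.99 (SE 0.15, adjusted p = 0.0019) and -0.75 (SE 0.14, adjusted p = 0.0034). Most of its reads lay on the spliced transcript without the stem-loop motif. H2BC8 and H2BC4, named after their values were seen, completed the called falls of this type. H2BC8 fell with ICG-001 (-0.77, adjusted p = 0.024) and CWP232228 (-0.69, adjusted p = 0.045) and was at -0.64 with YB-0158 (adjusted p = 0.052), where it was called after the GC and length correction (-0.66, adjusted p = 0.034). H2BC4 fell with YB-0158 (-1.21, adjusted p = 0.019) and was at -0.90 with ICG-001 (adjusted p = 0.0503) and -0.88 with CWP232228 (adjusted p = 0.066).

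H2BC21, whose only listed transcript runs 1729 bases past its stem-loop, did not follow them. It was at 12.6 and 12.7 CPM with DMSO, 13.3 and 14.5 with ICG-001, 11.9 and 12.3 with CWP232228, and 11.6 and 11.8 with YB-0158. Its log2 fold changes were 0.14 (95% interval -0.08 to 0.35), -0.06 (-0.29 to 0.16) and -0.11 (-0.33 to 0.11), none of them called. Before the GC and length correction, the intervals exclude a fall of the size seen for H2BC12 with any of the 3 compounds. After it H2BC12 was at -0.48, -0.29 and -0.40, for which no such comparison was made. The H2BC21 values were then 0.03, -0.17 and -0.21, and the last was called (adjusted p = 0.0497). H2BC11 was not called either, at -0.52, -0.23 and -0.08.

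With the main test, the only called rises were in pseudogenes. H2BC20P was at 10.7 and 8.74 CPM with DMSO, 13.5 and 13.4 with ICG-001, 12.9 and 13.8 with CWP232228, and 9.75 and 10.9 with YB-0158. It rose with ICG-001 (0.47, SE 0.12, adjusted p = 0.013) and CWP232228 (0.46, SE 0.13, adjusted p = 0.019), but the sign turned with the GC and length correction, to -0.15 and -0.20, and the YB-0158 value went from 0.08 to a called -0.47. H2BC19P rose with CWP232228 (0.42, SE 0.13, adjusted p = 0.031), which became -0.03 after that correction, and its YB-0158 value went from -0.03 to a called -0.37. The 2 genes overlap on opposite strands, and the kit does not mark strand, so their reads cannot be told apart where they overlap. The transcript that took the reads is 6440 bases long in H2BC20P and 3612 in H2BC19P.

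Of the 4 H3 genes, 2 showed the same pattern of calls as H2AC8, though their falls with CWP232228 were smaller than its -0.97. H3C10 was at 1.77 and 2.12 CPM with DMSO, 0.881 and 0.850 with ICG-001, 1.46 and 2.15 with CWP232228, and 0.940 and 0.793 with YB-0158. Its ICG-001 and YB-0158 libraries lay below DMSO and its CWP232228 libraries overlapped with DMSO. It fell with ICG-001 (-1.17, SE 0.26, adjusted p = 0.0063) and YB-0158 (-1.16, SE 0.26, adjusted p = 0.0076), and was at -0.11 with CWP232228 (95% interval -0.69 to 0.47). H3C8 was at 2.02 and 2.40 CPM with DMSO, 1.03 and 1.32 with ICG-001, 1.72 and 2.05 with CWP232228, and 0.836 and 1.02 with YB-0158. It fell with ICG-001 (-0.92, SE 0.24, adjusted p = 0.012) and YB-0158 (-1.25, SE 0.24, adjusted p = 0.0038), and was at -0.23 with CWP232228 (-0.76 to 0.31). The only listed transcript of each is over 1000 bases long, so the reads do not show which end was used.

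H3C6 gave the reverse order of calls. It was at 5.63 and 5.55 CPM with DMSO, 4.22 and 4.67 with ICG-001, 3.84 and 4.24 with CWP232228, and 5.43 and 4.79 with YB-0158. It fell with CWP232228 (-0.47, SE 0.14, adjusted p = 0.029), and was at -0.33 with ICG-001 (adjusted p = 0.076) and -0.13 with YB-0158 (adjusted p = 0.48). After the GC and length correction the ICG-001 value, -0.60, was called as well (adjusted p = 0.0048). H3C14 had the largest log2 fold changes of any member with ICG-001 at a low level, 0.523 and 0.778 CPM with DMSO against 0.0772 and 0.0944. It was at 0.195 and 0.228 with CWP232228 and 0.122 and 0.205 with YB-0158. On the log2 scale it was at -2.92 (SE 0.49, adjusted p = 0.0018), -1.60 (SE 0.46, adjusted p = 0.024) and -2.01 (SE 0.45, adjusted p = 0.0078). After the GC and length correction the CWP232228 value, -1.17, did not pass (adjusted p = 0.097). Its transcript has the same sequence as that of H3C15, which has no entry of its own in the read files, and its exons overlap H4C14 on the opposite strand, so this value is uncertain.

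H4C5 was the 1 H4 gene called. It was at 1.15 and 1.10 CPM with DMSO, 0.422 and 0.307 with ICG-001, 0.618 and 0.261 with CWP232228, and 0.279 and 0.435 with YB-0158. Its log2 fold changes were -1.60 (SE 0.43, adjusted p = 0.015), -1.34 (SE 0.44, adjusted p = 0.039) and -1.67 (SE 0.44, adjusted p = 0.015), at a mean of 20 reads per library. H4C14 and H4C15, which lead the H4 sum, could be read only as a pair: H4C14 was at 6.67 and 0.550 CPM in the CWP232228 libraries, and H4C15 at 5.51 and 12.7 in the same libraries. Summed, the pair was at 14.4 and 14.8 CPM with DMSO, 18.01 and 18.5 with ICG-001, 12.2 and 13.3 with CWP232228, and 17.1 and 15.1 with YB-0158. The ICG-001 and YB-0158 libraries lay above DMSO and the CWP232228 libraries below. The pair sum carries no test, and neither gene was called alone. H4C12 and H4C11 are a second such pair: in DMSO replicate 1 H4C12 had 0 CPM and H4C11 0.904, and in replicate 2 they had 0.813 and 0. H4C8 was at 0.52, 0.59 and 0.21 on the log2 scale and was not called.

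**Figure D4:**
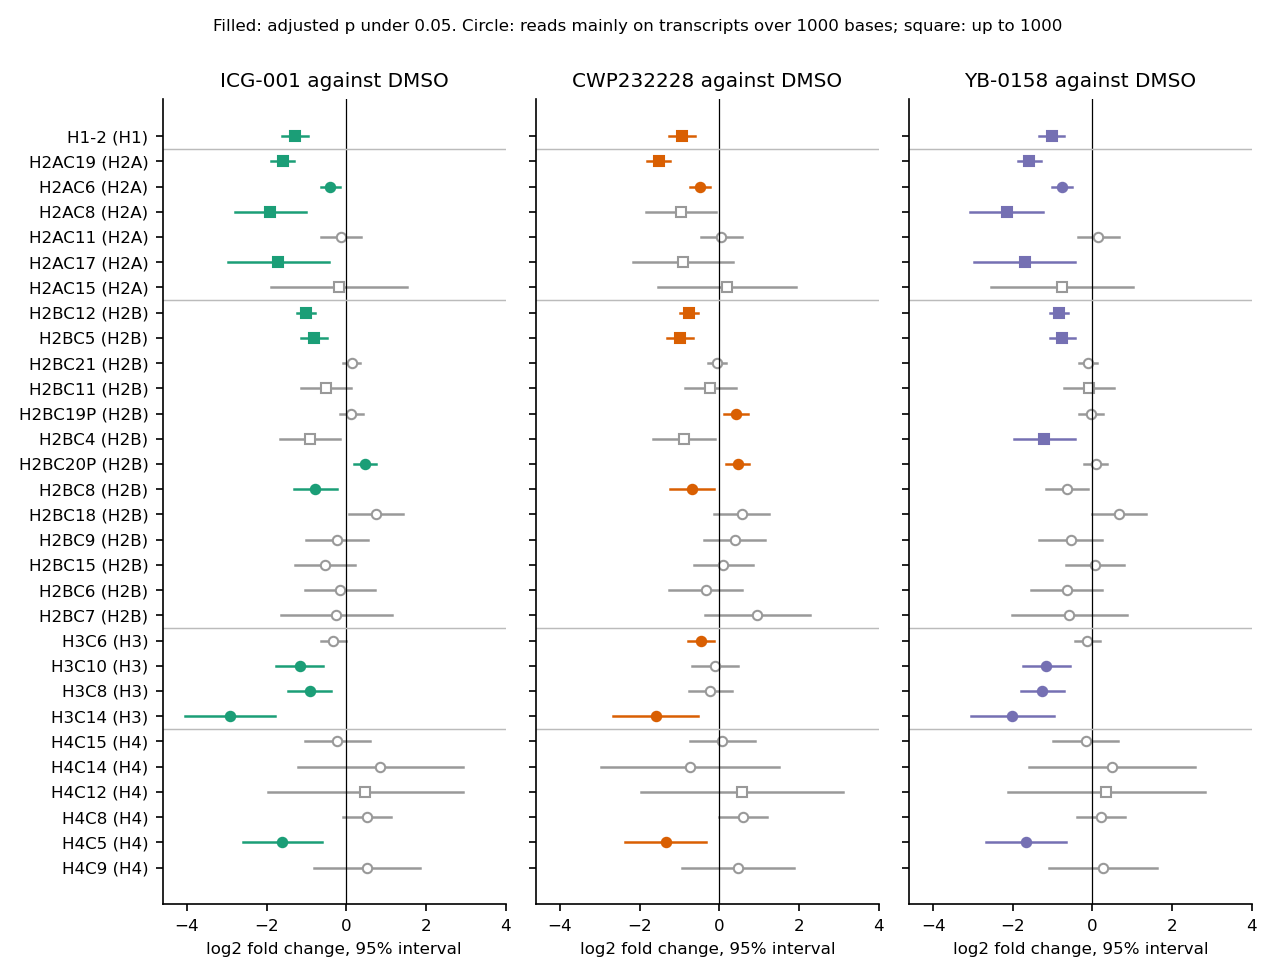
Log2 fold change against DMSO with its 95% interval for each of the 30 tested genes and each compound; filled symbols passed an adjusted p of 0.05, squares were read mainly on transcripts of up to 1000 bases and circles on longer ones. H2AC19 stands at -1.59, -1.53 and -1.59, H2BC21 next to 0, and H3C10 at -1.17, -0.11 and -1.16.

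Short and long transcripts were compared by counts. The reads of 10 tested members lay mainly on transcripts of up to 1000 bases and those of 20 on longer ones. Most members have listed transcripts on only 1 side of this limit, so the annotation set their class. For these the class does not show which end the RNA had. Of the 10, 6, 4 and 7 were lower with ICG-001, CWP232228 and YB-0158 and 0 higher, with medians of -0.96, -0.90 and -0.93. Of the 20, 6, 5 and 5 were lower and 1, 2 and 0 higher, with medians of -0.23, -0.01 and -0.15. All genes tested with a mean transcript length of up to 1000 bases, 2295 of them, had medians of -0.32, -0.30 and -0.27, and 30.8%, 28.1% and 27.5% were called lower. The 14154 longer genes had medians of 0.07, 0.08 and 0.05, and 22.9%, 20.1% and 21.2% were called lower, so the counts of long-transcript members lie near this share. After the GC and length correction the short-transcript members had medians of -0.73, -0.49 and -0.70 and the long-transcript members -0.35, -0.17 and -0.42. So the difference between the 2 classes of member kept its direction and was smaller with each compound. It was not tested, and part of length itself cannot be told apart from it here.

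**Figure D5:**
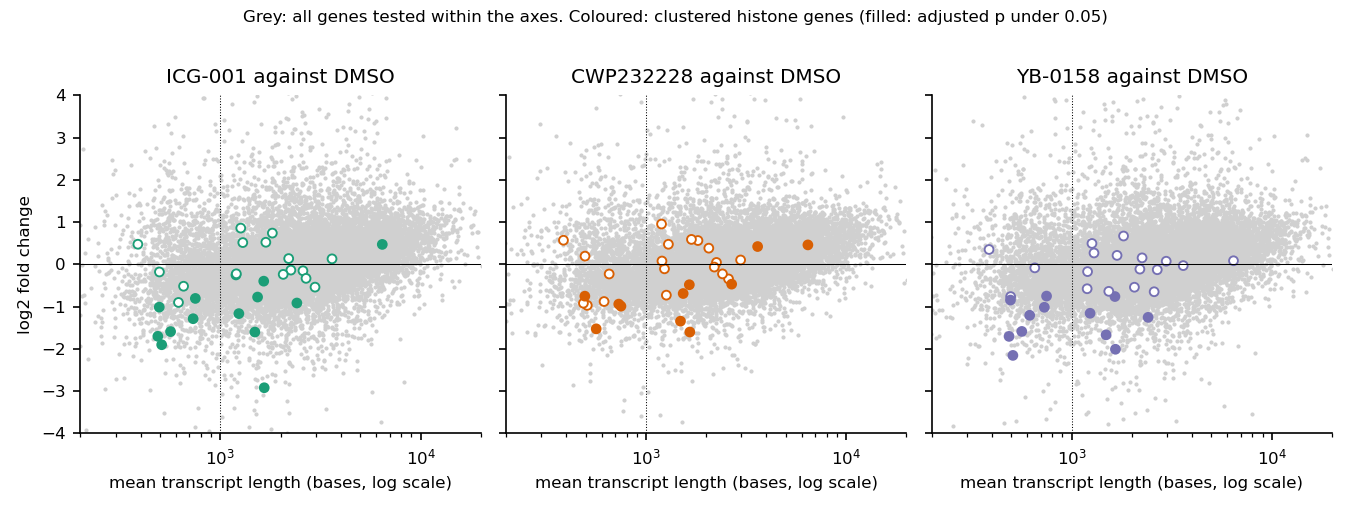
Log2 fold change against mean transcript length (log axis) for each compound, with all genes tested in grey and the 30 clustered histone genes in colour, filled where called; the dotted line marks 1000 bases. The members left of the line have medians of -0.96, -0.90 and -0.93 and those right of it -0.23, -0.01 and -0.15, within a grey cloud that itself rises with length.

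Most histone genes outside the clusters are transcribed throughout the cell cycle and make ordinary polyadenylated mRNA, but not every gene of the list used here does so. Of 10 tested from a list of 12, 6, 4 and 5 were lower with ICG-001, CWP232228 and YB-0158, and 1 was higher with each. Of all genes tested, 24.0%, 21.2% and 22.1% were lower and 24.8%, 21.6% and 21.7% higher. After the GC and length correction 7, 1 and 7 of the list were lower, and 2 were higher with each compound. Of all genes, 27.8%, 18.9% and 26.4% were then lower and 19.4%, 9.43% and 18.1% higher. H2AX, which is phosphorylated at DNA breaks and whose gene can also yield a stem-loop mRNA, fell with all 3 (-1.10, -0.59 and -1.04; adjusted p = 2.8e-05, 0.0013 and 4.2e-05), the CWP232228 value going to -0.02 after the GC and length correction. H2AJ fell with all 3 (-0.83, -0.63 and -0.83). H2AZ1, an H2A variant at promoters, fell with ICG-001 (-0.38) and YB-0158 (-0.49) and was at -0.15 with CWP232228. H3-3B (0.14, 0.12 and 0.06) and MACROH2A1 (-0.04, -0.01 and -0.07) were not called, though MACROH2A1 was called lower after the correction with ICG-001 (-0.15) and YB-0158 (-0.19). H1-10 fell with ICG-001 and CWP232228 (-0.26 and -0.35), and was at -0.18 with YB-0158, but the sign turned with the correction, to a called 0.32, 0.28 and 0.34. The counts include H3-3A, but its values are left out, because the transcripts that could be matched held only 0.17 of the authors' deposited mean normalized count for this gene.

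The machinery that transcribes and cuts clustered histone mRNA showed no common direction before the GC and length correction, and more falls than rises after it. Of 19 genes tested, 5 rose and 3 fell with ICG-001, 5 and 3 with CWP232228, and 3 and 2 with YB-0158. Of all genes, 24.8%, 21.6% and 21.7% rose and 24.0%, 21.2% and 22.1% fell. With the GC and length correction these counts became 4 and 8, 1 and 4, and 3 and 8. Of all genes, 19.4%, 9.43% and 18.1% then rose and 27.8%, 18.9% and 26.4% fell. SLBP was at 80.0 and 78.7 CPM with DMSO, 70.0 and 75.1 with ICG-001, 77.3 and 86.8 with CWP232228, and 68.5 and 69.7 with YB-0158, and was called with none (-0.13, 0.05 and -0.20), but after the correction it was called lower with YB-0158 (-0.22, adjusted p = 0.026). NPAT, the coactivator that cyclin E and CDK2 switch on at histone clusters, rose with ICG-001 (0.58, adjusted p = 0.033) and CWP232228 (0.81, adjusted p = 0.012). CASP8AP2, a partner of NPAT in histone transcription, rose with the same 2 compounds (0.65 and 1.00). After the correction NPAT was at -0.03 and 0.11 and CASP8AP2 at 0.03 and 0.29, none of them called. The U7 snRNP subunit LSM11 (0.00, 0.39 and -0.08) and the exonuclease ERI1 (-0.29, 0.09 and -0.30) were not called. After the correction both were called lower with ICG-001 (LSM11 -0.56, ERI1 -0.68) and YB-0158 (-0.60 and -0.62).

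Histone chaperones and acetylation factors handle histones outside nucleosomes, during replication and apart from it. Of 20 tested, 10, 3 and 9 fell and 2, 1 and 1 rose with ICG-001, CWP232228 and YB-0158, with medians of -0.16, -0.07 and -0.14. Among all genes, 24.0%, 21.2% and 22.1% were lower and 24.8%, 21.6% and 21.7% higher. The falls with CWP232228 did not exceed that share. Corrected for GC content and length, 14, 6 and 14 fell and 0 rose. Among all genes, 27.8%, 18.9% and 26.4% were then lower and 19.4%, 9.43% and 18.1% higher. ASF1B, which hands H3-H4 dimers on, was at 94.2 and 99.9 CPM with DMSO, 52.0 and 51.1 with ICG-001, 75.9 and 74.8 with CWP232228, and 46.2 and 45.3 with YB-0158. It fell with all 3 (-0.91, -0.37 and -1.09; adjusted p = 4.8e-05, 0.0049 and 2.5e-05), the CWP232228 value going to -0.01 after the correction. The CAF-1 subunits CHAF1A (-0.73, -0.19 and -0.82) and CHAF1B (-0.75, -0.08 and -0.82) and the H3-H4 carrier NASP (-0.54, -0.06 and -0.52) fell with ICG-001 and YB-0158 and were not called with CWP232228. After the correction CHAF1B (-0.34, adjusted p = 0.0081) and NASP (-0.19, adjusted p = 0.027) were called lower with CWP232228 too.

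The DNA replication and S phase list gives the setting in which clustered histone mRNA is normally made. Of 30 tested, 24 fell and 0 rose with ICG-001, and 23 fell and 0 rose with YB-0158, with medians of -0.61 and -0.75. With CWP232228, 9 fell and 5 rose, and the median was -0.01. With the GC and length correction 25, 12 and 27 fell and 0, 3 and 0 rose with ICG-001, CWP232228 and YB-0158, and the CWP232228 median was -0.11. Of all genes tested, 24.0%, 21.2% and 22.1% were called lower and 24.8%, 21.6% and 21.7% higher before the correction. After it, 27.8%, 18.9% and 26.4% were lower and 19.4%, 9.43% and 18.1% higher. The helicase subunit MCM2 fell with all 3 (-0.96, -0.36 and -0.97). The sliding clamp PCNA (-0.31 and -0.52), thymidylate synthase TYMS (-0.77 and -0.88) and the ribonucleotide reductase subunit RRM2 (-0.51 and -0.66) fell with ICG-001 and YB-0158, and were at 0.10, -0.03 and 0.06 with CWP232228. Cyclin E2, CCNE2, was at 0.36, 0.93 and -0.20 and rose with CWP232228 (adjusted p = 0.02), a call lost after the correction (0.44, adjusted p = 0.081). The lists were chosen with earlier results of these data known. Among the clustered histone genes, 7 were called lower with all 3 compounds, H2AC19 and H2BC5 among them. H2AC8, H2AC17, H3C10 and H3C8 were called lower with ICG-001 and YB-0158 and not with CWP232228. The share of all genes with either pattern of calls was not counted. With CWP232228, H2AC8 and H2AC17 were at -0.97 and -0.92, and H3C10 and H3C8 at -0.11 and -0.23. Whether the difference between compounds in these 4 exceeds the error was not tested, since the doses differ. In bulk RNA, fewer cells in S phase and less histone mRNA per cell cannot be told apart.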

How the data were processed

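Total RNA of 8 HT29 libraries was sequenced after a TruSeq RNA v2 preparation that does not mark strand, per the labels' protocols. Per the submitters' processing notes, reads went through fastp and Salmon 1.3.0, and DESeq2 was used. The deposited files hold, per the file headers, Salmon's estimated counts, TPM and lengths per transcript, and the authors' comparison tables hold log2 fold changes, adjusted p-values, a mean normalized signal and FPKM. Of 228754 transcripts, 89.5% were matched by ID to GENCODE release 29 and estimated counts were summed per gene and rounded. In each library 1.54% to 1.85% of the 29071547 to 58489118 reads had no gene match. A count of 0 allows up to 3 reads, or 0.0513 to 0.103 CPM, by counting error alone. Whether the index was built on this release is not given in the sources used here.

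One edgeR 4.0.16 quasi-likelihood model (R 4.3.3, TMM scaling, filterByExpr) covered all 8 libraries and 16449 genes, with Benjamini-Hochberg adjustment and a call at 0.05. It was tested on simulated data. CPM here means counts per 1e+06 reads with TMM scaling. Members and lists were chosen with earlier results of these data known. The genes named are, per type, the 4 tested members highest in TPM, per comparison the 3 largest called falls and rises, and a fixed set from the lists. Alternatives were DESeq2 1.42.0, its size factors, no low-count filter, a replicate block, a transcript length offset, a GC content and length correction, TPM and FPKM sums, and leaving out each library. Salmon divides reads among near-identical histone genes, so single-gene values of close copies are estimates. One gene of the fixed set is not reported here.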

Additional observations from a re-analysis of the deposited data

How the results depend on the processing

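Over 126 fold changes of named genes (21 members and 21 others in 3 comparisons), 93 kept their sign in every setting tried. Of the 69 called, 29 lost the call in at least 1 setting and 6 changed sign with the GC and length correction, without and with the replicate block. The clustered histone genes called with CWP232228 were 11, and became 6 with DESeq2's Wald test, 5 with the transcript length offset, 7 with the GC and length correction and 7 with that correction and a replicate block. Leaving out 1 library gave 9 to 13 calls with ICG-001, 6 to 10 with CWP232228 and 8 to 13 with YB-0158. The deviations of same-numbered libraries correlated at -0.08 to 0.18 between groups, highest for ICG-001 with YB-0158 and not above 0.1 for the others, so the numbers were not taken to pair the samples. With the replicate block the calls were 13, 8 and 12, and with block and GC and length correction 12, 7 and 14.

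In the lists with CWP232228, calls among histone variants went from 5 to 3 with the GC and length correction and 2 with the block added. Those among processing factors went from 8 to 5 with the length offset, the correction, or correction and block (2 to 14 without 1 library), those among chaperones from 4 to 7 with no low-count filter (3 to 9), and those in the S phase list from 14 to 7 with the length offset (9 to 17). Processing factors called with ICG-001 went from 8 to 5 with the block and 4 with the length offset (4 to 10), and with YB-0158 from 5 to 8 with no filter and 11 with the correction, with or without the block (3 to 10). The cause of these moves was not tested.

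As log2 ratios to DMSO in the order ICG-001, CWP232228 and YB-0158, the H2A sum was -1.005, -0.91 and -1.16 in TPM and -1.09, -1.01 and -1.24 in the authors' FPKM. H2B was -0.72, -0.58 and -0.65 in TPM and -0.81, -0.69 and -0.74 in FPKM, and H3 in FPKM was -0.81 with ICG-001 and -0.71 with YB-0158. H4 was 0.21 and -0.25 in TPM with ICG-001 and CWP232228, and 0.13, -0.36 and -0.058 in FPKM. All members together were at -0.69, -0.63 and -0.70 in TPM and -0.78, -0.74 and -0.79 in FPKM.

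Signs turned with the GC and length correction, without and with the replicate block, for H2AC11 with CWP232228 (-0.11 and -0.11), H2BC11 with YB-0158 (0.063 and 0.063), H2BC19P with ICG-001 (-0.27 and -0.28) and CWP232228 (-0.032 and -0.030), and H2BC20P with ICG-001 (-0.15 and -0.15), CWP232228 (-0.20 and -0.20) and YB-0158 (-0.47 and -0.47). So did NPAT with ICG-001 (-0.027 and -0.026), CASP8AP2 with YB-0158 (-0.0084 and -0.0031), LSM11 (-0.15 and -0.15), ERI1 (-0.37 and -0.37) and RRM2 (-0.24 and -0.24) with CWP232228, H1-10 with ICG-001 (0.32 and 0.32), CWP232228 (0.28 and 0.28) and YB-0158 (0.34 and 0.34), and TYMS with CWP232228 (0.00034). With the length offset H2BC11 (0.22), H4C8 (-0.089) with YB-0158, and H4C15 (-0.13), H3-3B (-0.045) and TYMS (0.11) with CWP232228 turned. With no low-count filter H2BC19P with YB-0158 (0.0047), LSM11 with ICG-001 (0.033) and MACROH2A1 with CWP232228 (0.0049) turned.

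Leaving out 1 library turned the sign of uncalled genes. With ICG-001 the ranges were -0.34 to 0.056 for H2AC11, -0.52 to 7.52 for H4C12, -0.26 to 0.29 for LSM11 and -0.012 to 0.84 for CCNE2. With CWP232228 they were -0.41 to 0.15 for H3C10, -0.42 to 7.61 for H4C12, -3.42 to 0.16 for H4C14, -0.64 to 0.56 for H4C15, -0.033 to 0.13 for SLBP, -0.13 to 0.33 for ERI1, -0.041 to 0.0094 for MACROH2A1 and -0.15 to 0.30 for RRM2. With YB-0158 they were -0.033 to 0.33 for H2AC11, -0.26 to 0.085 for H2BC11, -0.13 to 0.075 for H2BC19P, -0.067 to 0.25 for H2BC20P, -0.64 to 7.40 for H4C12, -0.32 to 0.22 for LSM11 and -0.57 to 0.29 for CCNE2. A group left with 1 library was assumed to vary like the others. Depth limits the genes at about 20 reads per library or fewer, such as H2AC17, H3C14 and H4C5.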
